A study of Mus musculus with 7 samples.

Results

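The galectins Lgals1, Lgals3, Lgals8 and Lgals9, together with the galectin-3 binding protein Lgals3bp, were examined in neutrophils sorted from injured mouse livers. The members were taken by gene symbol, and all 5 were present among the 16047 genes of the expression table. RNA-seq had been performed on 50000 neutrophils per liver, sorted as CD11b+ Ly6G+ Ly6C-low cells negative for CX3CR1-GFP, at 24 h after acetaminophen-induced liver injury (AILI) in male mice. The strain is labelled as C57BL/6, although the sort used a CX3CR1-GFP signal. In 4 of the mice (PBS neutrophils, replicates 5 to 8) the vehicle PBS was injected, and in 3 (MC-21 neutrophils, replicates 2 to 4) 400 µL of medium conditioned with 29 µg/mL of MC-21, a monoclonal antibody against CCR2 that ablates circulating Ly6C-high monocytes, from 12 h before acetaminophen and every 24 h. Mice of both groups received acetaminophen, and neither uninjured livers nor a control antibody is part of the comparison. The comparison asks how galectin transcripts of liver neutrophils differ where infiltrating monocytes are missing.

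Galectins are small lectins that bind beta-galactoside sugars on glycoproteins. They are made in the cytosol without a signal peptide, leave the cell by an unconventional route, and cross-link glycoproteins on cell surfaces and in the matrix. Galectin-1 (Lgals1) has a single carbohydrate-recognition domain and forms dimers, galectin-3 (Lgals3, also known as Mac-2) joins such a domain to a long repeat-rich tail, and galectin-8 and galectin-9 (Lgals8, Lgals9) carry a pair of domains on a single chain. Galectin-1 is known for promoting the turnover of activated leukocytes and galectin-3 for its abundance in macrophages. Lgals3bp is a secreted glycoprotein that binds galectin-3 and is no lectin of this family.

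Short stretches of the recognition domain are shown in the coding sequences, because the galectins share this domain and Lgals3bp does not. In the longest complete coding sequence of each gene in GENCODE vM1 (build NCBIM37, the mm9 assembly), a tryptophan codon followed by a glycine codon, any codon and a glutamate codon occurred at 1 place in Lgals1, 1 in Lgals3, 2 in Lgals8, 2 in Lgals9 and 0 in Lgals3bp. How often this pattern occurs in other genes is not given here. The capitals mark the tryptophan, glycine and glutamate codons.
Lgals1, from codon 69: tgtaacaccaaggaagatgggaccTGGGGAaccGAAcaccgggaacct
Lgals3, from codon 195: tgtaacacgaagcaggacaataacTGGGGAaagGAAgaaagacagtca
Lgals8, from codon 85: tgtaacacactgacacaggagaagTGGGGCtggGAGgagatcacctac
Lgals8, from codon 257: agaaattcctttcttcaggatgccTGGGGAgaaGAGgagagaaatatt
Lgals9, from codon 81: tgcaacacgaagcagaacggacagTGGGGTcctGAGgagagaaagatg
Lgals9, from codon 285: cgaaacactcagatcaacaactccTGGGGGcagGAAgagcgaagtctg
Each line starts 8 codons before the codon named. The coding sequences are 135 codons long for Lgals1, 264 for Lgals3, 325 for Lgals8, 353 for Lgals9 and 577 for Lgals3bp, without the stop codon.

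The values are RPKM, read numbers scaled to transcript length and library size, from 3' RNA-seq libraries. Depth was estimated from low values, whose most frequent product with transcript length was taken as 1 read. By this unit, 75 to 80.1% of the low values were no further than 0.1 from a whole number of reads. The choice of unit from the same values partly fixes this share. On this scale, 1 RPKM in a transcript of 1 kb stood for 1.59 to 3.96 reads. By the longest annotated transcript, the members rest on about 377 to 1785 reads per library for Lgals1, 625 to 2640 for Lgals3, 387 to 901 for Lgals9, 285 to 1123 for Lgals3bp and 54 to 137 for Lgals8. Counting error alone then gives a coefficient of variation (CV) of 2.37 to 5.15% for Lgals1 and of 8.54 to 13.6% for Lgals8. Neutrophil transcripts were high in every library (S100a9 between 12300 and 25000 RPKM), while monocyte, endothelial and hepatocyte transcripts were also present in every library.

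Lgals1 and Lgals3 were the main galectin transcripts of PBS neutrophils. Lgals1 had 540 ± 52.5 RPKM (SD, n = 4) and Lgals3 had 479 ± 104 RPKM (SD, n = 4). By the mean over all 7 libraries of both groups they stood at ranks 186 and 202 among the genes of the table. Their ranges overlapped, so no order between them can be given. Lgals9 followed with 127 ± 12.3 RPKM (SD, n = 4) and Lgals3bp with 90 ± 24.8 RPKM (SD, n = 4). The PBS ranges of Lgals9 and Lgals3bp overlapped too, although Lgals9 was the higher in each of the 7 libraries. Lgals8 was far lower, with 11 ± 2.13 RPKM (SD, n = 4). Division by transcript length weighs on this order in 3' libraries, where reads come from transcript ends. Multiplied by the length of the longest transcript in kilobases, the mean RPKM over all 7 libraries gave Lgals3 the first place with 557 and Lgals1 the second with 332, followed by Lgals9 (205), Lgals3bp (189) and Lgals8 (29.7).

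**Figure D1:**
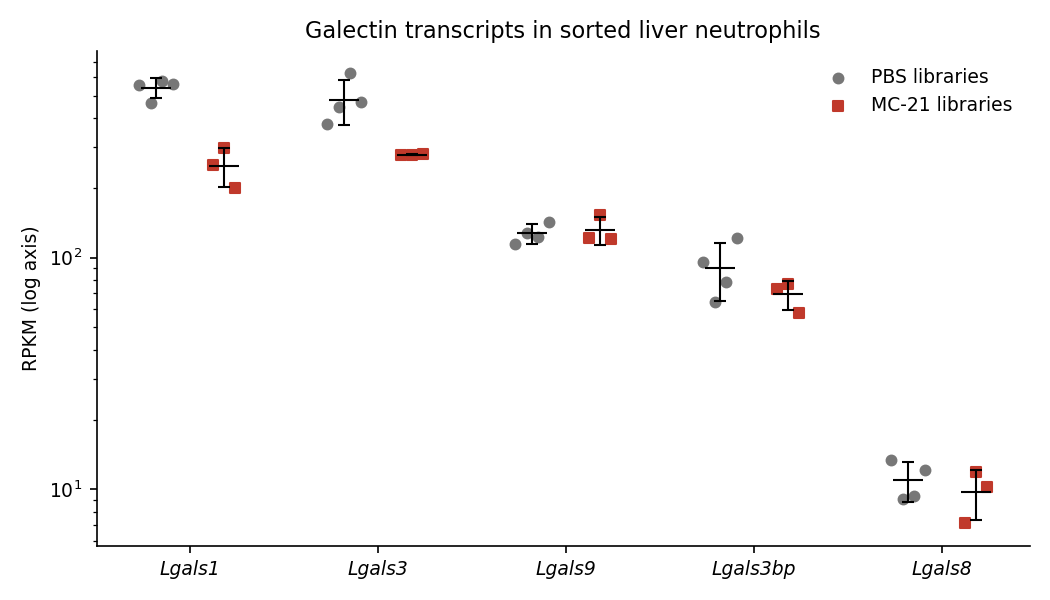
RPKM (log axis) of the 5 genes in each PBS library (grey circles) and MC-21 library (red squares), with the mean and SD of each group in black. For Lgals1 and Lgals3 the MC-21 libraries all lie below the PBS libraries, while for Lgals9, Lgals3bp and Lgals8 the groups overlap.

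The other galectins were low, with at most 12 reads in a library for Lgals4 by its longest annotated transcript. Lgals2, Lgals4, Lgals6, Lgals7, Lgals12 and the galectin-like Lgalsl were in the table and between 0 and 3.15 RPKM in every library, and only Lgals4 and Lgalsl reached the mean of 1 RPKM needed for the test. Their log2 fold changes were -0.26 for Lgals4 (adjusted p = 0.74 from limma) and 0.04 for Lgalsl (adjusted p = 0.949 from limma). Lgals4 and Lgals6 are close copies of each other, and Lgals6 was listed at 1.05e-07 and 1.06e-07 RPKM in MC-21 replicate 2 and PBS replicate 7, values too small to be a read, so that the split of reads between these copies is uncertain.

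Lgals1 was lower in MC-21 neutrophils. It had 554, 463, 580 and 563 RPKM in PBS replicates 5 to 8 and 252, 296 and 200 RPKM in MC-21 replicates 2 to 4. The highest MC-21 library lay well below the lowest PBS library, and the MC-21 mean of 249 ± 48.1 RPKM (SD, n = 3) was 0.462 of the PBS mean. On log2(RPKM + 1) the gene fell by 1.12 (standard error 0.16, 95% interval -1.48 to -0.77, adjusted p = 0.0172 from limma over 9594 genes), which was rank 22 by p among the genes tested. The two-sided exact permutation test gave p = 0.0286, which is the lowest value 7 libraries can give in this design. The median of all genes tested was itself lower by 0.15 on this scale (log2 fold change -0.15), and once library medians were aligned the log2 fold change of Lgals1 was -0.96 (adjusted p = 0.0232 from limma). Leaving out a library kept the log2 fold change between -1.26 and -0.98, but the adjusted p from limma rose to 0.0629 without MC-21 replicate 2, 0.0633 without MC-21 replicate 4, 0.0571 without PBS replicate 7 and 0.0825 without PBS replicate 8. Lgals1 lies on chromosome 15 from 78757155 to 78760895 (mm9, forward strand) and has 1 annotated transcript of 800 bases. RefSeq also lists a pseudogene, Lgals1-ps1, whose reads may share this row.

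Lgals3 was also lower in every MC-21 library than in any PBS library. It had 378, 444, 624 and 470 RPKM in PBS replicates 5 to 8 and 278, 277 and 279 RPKM in MC-21 replicates 2 to 4. The PBS libraries were spread widely (CV 21.7%), with PBS replicate 7 the highest, while the MC-21 libraries were almost equal (CV 0.486%, less than the 2.67, 4 and 3.01% that counting error alone gives for replicates 2, 3 and 4). The log2 fold change was -0.76 (standard error 0.17, 95% interval -1.14 to -0.38), with an unadjusted p of 0.00124 and an adjusted p = 0.0837 from limma, so that the difference did not pass the adjusted threshold of 0.05. It was -0.60 (adjusted p = 0.192 from limma) once library medians were aligned, and between -0.87 and -0.63 with a library left out. The exact permutation test gave p = 0.0286, the smallest possible. Lgals3 lies on chromosome 14 from 47987426 to 48005835 (mm9, forward strand), with 6 annotated transcripts.

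Of the 5 members, 1 was called lower at an adjusted p under 0.05, where 0.427% of all genes tested were called lower and 0.625% in either direction. An unadjusted p under 0.05 with a lower level was found for 2 members, against 11.2% of the genes tested, and in 2 members the MC-21 libraries lay entirely below the PBS libraries, against 10.2% of the genes tested. With 5 members these shares are a description only.

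The other 3 members did not pass the test. Lgals3bp had 96.1, 64, 78.4 and 122 RPKM in PBS replicates 5 to 8 and 73.2, 76.8 and 57.9 RPKM in MC-21 replicates 2 to 4. Its values overlapped between the groups, with PBS replicate 6 below 2 of the MC-21 libraries, and its log2 fold change was -0.34 (95% interval -0.84 to 0.15, adjusted p = 0.51 from limma). Lgals8, which marks damaged endosomes and lysosomes for autophagy, had 13.4, 9.05, 9.34 and 12.1 RPKM in PBS replicates 5 to 8 and 7.14, 11.9 and 10.2 RPKM in MC-21 replicates 2 to 4. Its log2 fold change of -0.17 (95% interval -0.65 to 0.32, adjusted p = 0.764 from limma) was close to the median of all genes, and it was 0.02 without MC-21 replicate 2 and 0.00 once library medians were aligned.

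Lgals9, a ligand of the inhibitory receptor TIM-3, showed no difference that passed the test, with a narrow interval. It had 114, 128, 123 and 143 RPKM in PBS replicates 5 to 8 and 122, 153 and 120 RPKM in MC-21 replicates 2 to 4. Every MC-21 library but replicate 3 lay within the PBS range. The log2 fold change was 0.05 (95% interval -0.28 to 0.37, adjusted p = 0.909 from limma), the narrowest interval of the 5 genes, 0.21 once library medians were aligned and -0.07 without MC-21 replicate 3. Lgals9 and Lgals3bp lie on chromosome 11 (78776476 to 78798448 and 118254065 to 118263406) and Lgals8 on chromosome 13 (12531682 to 12557211), all on the reverse strand of mm9.

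**Figure D2:**
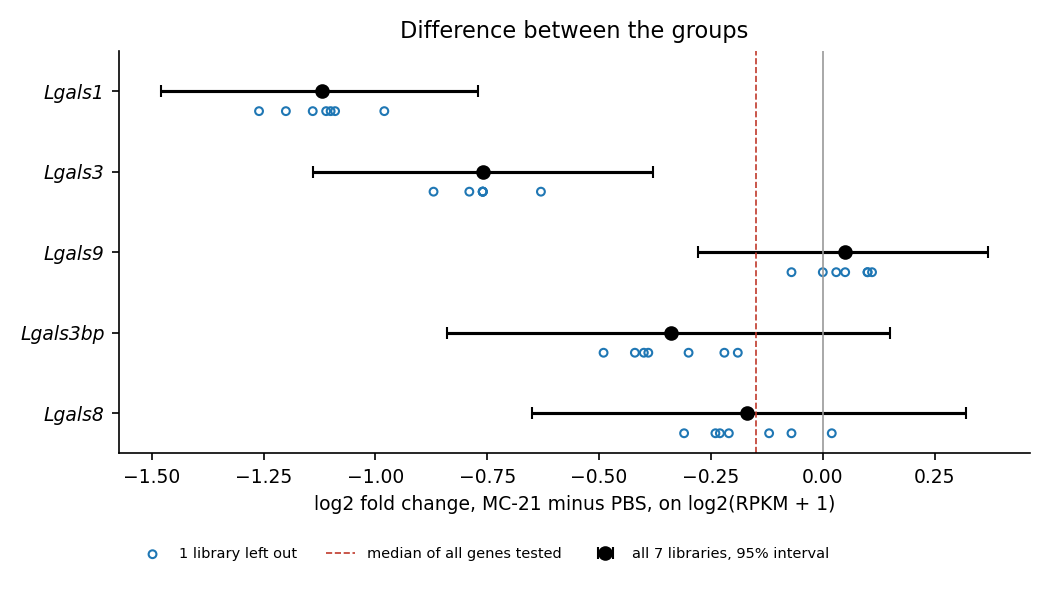
Log2 fold change of each gene (MC-21 minus PBS, on log2(RPKM + 1)) with its 95% interval from limma (black), the values with 1 library left out (blue circles) and the median of all genes tested (red dashed line, -0.15). The intervals of Lgals1 and Lgals3 lie wholly to the left of that line, and those of Lgals9, Lgals3bp and Lgals8 cross it.

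Added together, the 4 galectins reached 1160 ± 139 RPKM (SD, n = 4) in the PBS group and 668 ± 65.1 RPKM (SD, n = 3) in the MC-21 group. The lowest PBS library had 1040 RPKM and the highest MC-21 library 738 RPKM. This sum depends on the scaling between libraries, while the shares of it and the ratios between members do not. Lgals1 made up 43.4 to 52.3% of this sum in the PBS libraries and 32.8 to 40.1% in the MC-21 libraries. The share of Lgals9 was 9.19 to 12.3% in PBS and 18.5 to 20.8% in MC-21 libraries, while the share of Lgals3 was 35.7 to 46.7% and 37.5 to 45.8%.

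**Figure D3:**
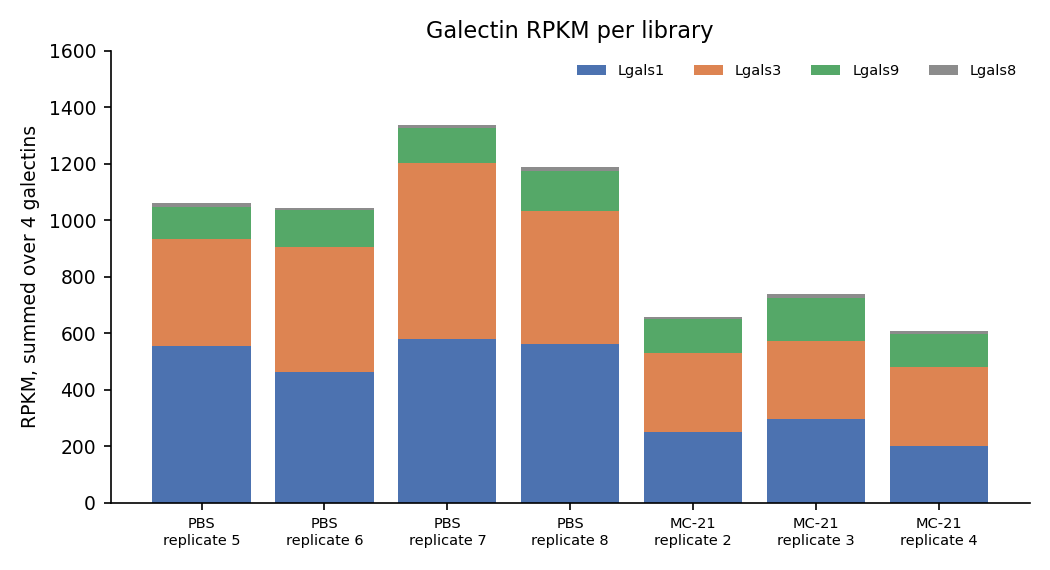
RPKM of Lgals1, Lgals3, Lgals9 and Lgals8 stacked in each library, from 0. The MC-21 bars end at 609 to 738 RPKM and the PBS bars at 1040 RPKM or more, and the Lgals9 segment stands for 114 to 153 RPKM.

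Log2 ratios were tested for all 10 pairs of members. The ratio of Lgals1 to Lgals9 was 2.08 ± 0.20 in PBS (SD, n = 4) and 0.91 ± 0.16 in MC-21 libraries (SD, n = 3), a difference of -1.17, and that of Lgals3 to Lgals9 was 1.89 ± 0.30 and 1.08 ± 0.20 (SD, n = 4 and 3), a difference of -0.81. Both had p = 0.0286 by the two-sided exact permutation test, and the adjusted p over the 10 pairs was 0.0952. The log2 ratio of Lgals1 to Lgals8 was 5.51 in PBS and 4.55 in MC-21 libraries, a difference of -0.96 with the same exact permutation p of 0.0286 (adjusted p = 0.0952). The groups overlapped in the ratio of Lgals1 to Lgals3, which was between -0.10 and 0.55 in PBS and between -0.48 and 0.10 in MC-21 libraries (difference -0.36, exact permutation p = 0.171, adjusted p = 0.245), so that unequal change of Lgals1 and Lgals3 was not shown. No pair reached an adjusted p under 0.05, and 3 of the 10 had an unadjusted exact p under 0.05.

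Markers of monocytes and macrophages, cells known to express both Lgals1 and Lgals3, were examined beside the galectins. Of 15 such markers, 13 had lower values in MC-21 neutrophils, where 69.4% of all genes tested had lower values. Of them, 4 had an adjusted p under 0.05 from limma (C1qa, C1qb, C1qc and Ccr2), where 0.427% of all genes tested were called lower. Ccr2 was near the floor, with 1.91 to 3.26 RPKM in PBS and 0 to 0.39 RPKM in MC-21 libraries. The median log2 fold change of the 15 markers was -0.73. Their summed level was 2040 to 2410 RPKM in PBS and 1300 to 1720 RPKM in MC-21 libraries, and no marker of the list was at 0 in all libraries. Apoe, an apolipoprotein that hepatocytes also make, accounted for most of this sum, with 1220 to 1670 RPKM in PBS and 803 to 1200 RPKM in MC-21 libraries (log2 fold change -0.65, adjusted p = 0.145 from limma). C1qa, a chain of the complement component C1q, had 129, 99.1, 114 and 127 RPKM in PBS replicates 5 to 8 and 54.3, 48.8 and 38.9 RPKM in MC-21 replicates 2 to 4 (log2 fold change -1.30, adjusted p = 0.0139 from limma). Cd68, a lysosomal membrane protein, was between 118 and 176 RPKM in PBS and between 87.1 and 92.2 RPKM in MC-21 libraries (log2 fold change -0.73, adjusted p = 0.0786 from limma). The part of these cells in the galectin results was not tested, and in sorted bulk samples fewer cells of a type and less RNA per cell cannot be told apart. Cd63, Adgre1 and Mrc1, other markers of the list, had log2 fold changes of 0.33, 0.02 and -0.18 (adjusted p = 0.461, 0.988 and 0.883 from limma), and were chosen here after their values were seen. Markers of other cells gave no call at an adjusted p under 0.05 from limma. Of the 11 neutrophil markers tested, 6 had higher and 5 lower values, with a median log2 fold change of 0.38. At an unadjusted p under 0.05 from limma, 3 were higher and 1 lower. Of the 9594 genes tested, 1415 passed this threshold, and 1071 of those were lower. The summed level of the neutrophil markers was 18000 to 30500 RPKM in PBS and 27300 to 40800 RPKM in MC-21 libraries. S100a9 accounted for most of it, with 12300 to 20600 RPKM in PBS and 18100 to 25000 RPKM in MC-21 libraries. Endothelial markers summed to 1360 to 2810 and 1410 to 2450 RPKM and hepatocyte markers to 217 to 489 and 218 to 362 RPKM. Kupffer cell markers, 3 of which were tested and had lower values, summed to 56.3 to 84.4 and 34.3 to 64.4 RPKM. At an unadjusted p under 0.05 from limma, 2 of them were lower (Cd5l and Marco). The sums of 3 platelet markers were 82.3 to 250 and 41.6 to 69.1 RPKM and consisted mainly of Pf4, which was lower without overlap, while Itga2b was higher without overlap and Ppbp overlapped. Their part in the galectin results was not tested.

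Likeness was measured as the root mean square (RMS) difference between 2 genes in mean-centred log2(RPKM + 1) over the 7 libraries, among the 9594 genes tested. The genes most like Lgals1 were Dera, Atg4d and Zfp503, with RMS differences of 0.11, 0.13 and 0.14 where the median over all genes was 0.58. Dera, a deoxyribose-phosphate aldolase, was at a far lower level, with 6.86, 4.45, 6.01 and 6.43 RPKM in PBS replicates 5 to 8 and 1.82, 2.61 and 1.70 RPKM in MC-21 replicates 2 to 4. Atg4d and Zfp503 were low too, with means of 7.59 and 11 RPKM in PBS and 2.66 and 3.96 RPKM in MC-21 libraries. Adding 1 RPKM shrinks changes at such low levels. In RPKM these genes fell by a larger factor than Lgals1, whose means were 540 and 249 RPKM. C1qa and C1qc stood 5th and 6th by likeness to Lgals1, with an RMS difference of 0.15 each (ranks 5 and 6), a comparison chosen after the values were seen. The monocyte and macrophage markers did not stand together in this order. Ms4a7, Mrc1, Cd63 and Adgre1 were at ranks 7429, 8071, 8620 and 9066, the last with an RMS difference of 0.92. The genes most like Lgals3 were Slc25a10, U2af2 and Dennd1a (0.085, 0.14 and 0.15, median over all genes 0.46). Slc25a10 was also low, with means of 3.49 RPKM in PBS and 1.53 RPKM in MC-21 libraries. Cd68 was the closest monocyte and macrophage marker to Lgals3, at rank 32 (0.19), and Adgre1 the furthest, at rank 9221 (0.87). Those most like Lgals3bp were Mccc2, 4931406C07Rik and Aars, those most like Lgals8 were Armc3, Nol4l and Sf3a2, and those most like Lgals9 were Tspyl1, Adar and Arid1b, with RMS differences between 0.047 and 0.083. For Lgals3bp, Lgals8 and Lgals9 the medians over all genes were smaller too, at 0.39, 0.36 and 0.31. Their own RMS about the mean was 0.33, 0.26 and 0.14, against 0.58 for Lgals1. These genes were picked by the data, and their values are a description.

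Among 20 proteins known as binding partners of galectins, 17 were tested, of which 12 had lower and 5 higher values, with a median log2 fold change of -0.32. The share of lower values was near the 69.4% of all genes tested. At an unadjusted p under 0.05 from limma, 6 were lower and 2 higher, where 11.2% of all genes tested were lower. Without overlap between the groups, 5 were lower and 1 higher, where 10.2% of all genes tested were lower. Only Trem2 had an adjusted p under 0.05 from limma. Trem2, a lipid-sensing receptor of macrophages that galectin-3 also binds, had 10.7, 21.2, 27.6 and 18.7 RPKM in PBS replicates 5 to 8 and 3.18, 1.64 and 1.26 RPKM in MC-21 replicates 2 to 4. Fn1, fibronectin of the matrix, was 4.68 to 11.4 RPKM in PBS and 0.726 to 2.39 RPKM in MC-21 libraries (log2 fold change -1.76, adjusted p = 0.0697 from limma). Both genes are also expressed by macrophages. Havcr2, which encodes the galectin-9 receptor TIM-3 and is named here after its values were seen, had 2.39, 8.6, 7.59 and 5.37 RPKM in PBS replicates 5 to 8 and 30.7, 15.7 and 11 RPKM in MC-21 replicates 2 to 4. The groups did not overlap, while its log2 fold change of 1.51 missed the threshold, with a standard error of 0.41 and an adjusted p = 0.16 from limma. The integrin chains Itgam and Itgb2 of neutrophils had log2 fold changes of 0.36 and -0.16 (adjusted p = 0.457 and 0.691 from limma).

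Enzymes that build or cap the sugars read by galectins had no member past the adjusted threshold. Of 20 such enzymes 17 were tested, 8 lower and 9 higher, with a median log2 fold change of 0.03 and 0 at an adjusted p under 0.05 from limma (1 at an unadjusted p under 0.05). That gene was St3gal4, a sialyltransferase that caps galactose, with 28.3, 34.5, 31.9 and 31.8 RPKM in PBS replicates 5 to 8 and 50.4, 52 and 48 RPKM in MC-21 replicates 2 to 4. Its groups did not overlap (log2 fold change 0.65 with a standard error of 0.14, adjusted p = 0.0739 from limma). Mgat5, which makes the branched sugars bound best by galectin-3, was between 0 and 0.484 RPKM and was not tested.

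Genes that act with galectin-3 and galectin-8 at damaged membranes gave no call. Of 19 of these genes tested, 10 were lower and 9 higher, with a median log2 fold change of -0.03, 0 at an adjusted p under 0.05 from limma and 1 at an unadjusted p under 0.05. For the autophagy receptor Sqstm1 the log2 fold change was -0.12 (adjusted p = 0.787 from limma) and for Map1lc3b, an autophagosome protein, 0.27 (adjusted p = 0.387 from limma).

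**Figure D4:**
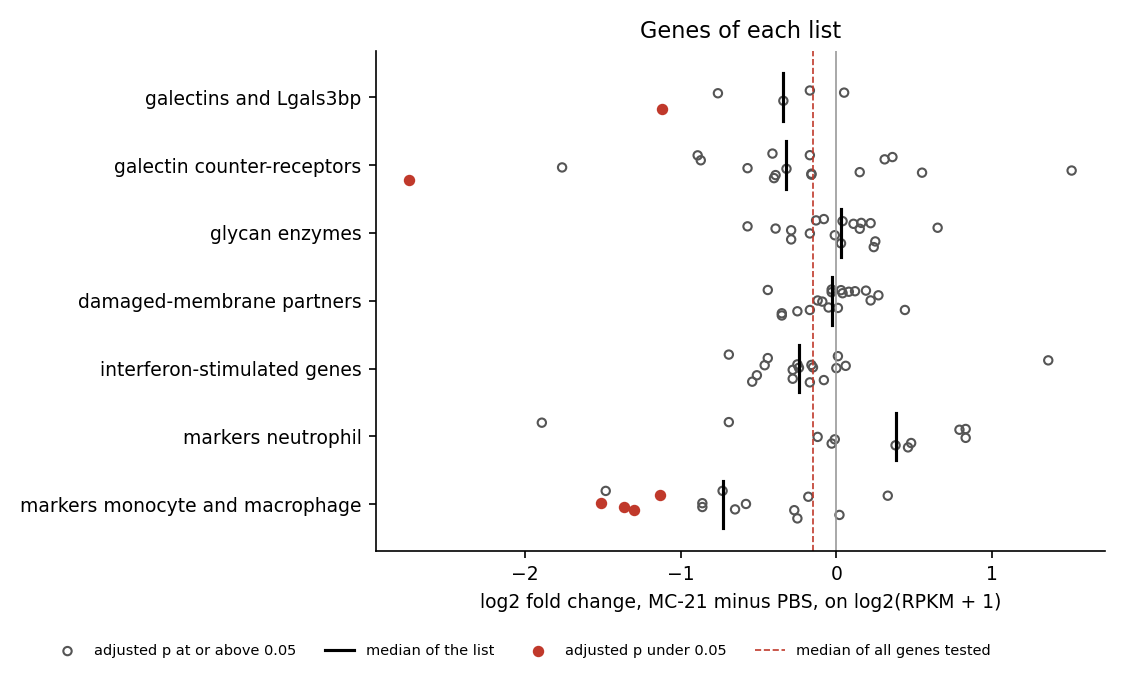
Log2 fold change (MC-21 minus PBS, on log2(RPKM + 1)) of every tested gene in 7 lists, with calls at an adjusted p under 0.05 from limma filled in red, the median of each list as a black bar and the median of all genes tested as a red dashed line. The monocyte and macrophage markers lie furthest left as a list (median -0.73), and the glycan enzymes and damaged-membrane partners centre near 0.

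The promoters are shown for Lgals9, which is known to respond to interferon, and for Lgals3, whose values were lower in all MC-21 libraries. They run from 250 bases before to 50 after the start of the gene in RefSeq (GRCm38.p6, the strand of the gene). RefSeq promoters were matched for Lgals3, Lgals3bp, Lgals8 and Lgals9, 4 of the 5 members, and not for Lgals1. Capitals mark matches, on either strand, to the interferon-stimulated response element (ISRE, searched as GAAA, any 2 bases and GAAA), the core of the PU.1 site (GAGGAA) and the GC box (GGGCGG).
Lgals9, chr11:78984875-78985174, reverse strand: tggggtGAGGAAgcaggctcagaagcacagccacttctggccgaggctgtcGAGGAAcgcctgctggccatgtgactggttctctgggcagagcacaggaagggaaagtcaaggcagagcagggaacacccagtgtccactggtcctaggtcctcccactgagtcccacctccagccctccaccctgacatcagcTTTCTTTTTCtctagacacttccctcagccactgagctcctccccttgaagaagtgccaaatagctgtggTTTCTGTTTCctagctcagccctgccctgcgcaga
Lgals3, chr14:47373610-47373909, forward strand: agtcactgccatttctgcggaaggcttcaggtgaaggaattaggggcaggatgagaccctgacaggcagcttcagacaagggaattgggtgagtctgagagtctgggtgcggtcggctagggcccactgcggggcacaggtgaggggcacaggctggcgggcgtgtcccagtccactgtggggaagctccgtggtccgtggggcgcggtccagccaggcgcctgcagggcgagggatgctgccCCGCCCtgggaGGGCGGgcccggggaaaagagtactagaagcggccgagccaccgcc
The Lgals9 promoter held 2 ISRE matches, which begin 55 bases before the start and at base 16 after it, and 2 PU.1 core matches at 244 and 199 bases before the start. ISRE matches were found in 3.45% of 32544 promoters of this length and PU.1 core matches in 28.1%. The Lgals3bp promoter held 1 PU.1 core match, at base 33 after the start. The promoters of Lgals3, Lgals3bp and Lgals8 held 0 ISRE matches. The Lgals3 promoter held 2 GC boxes, found in 35.9% of promoters, 18 CG dinucleotides and 67% G or C. Matches to AP-1 sites (TGANTCA) and TATA boxes (TATAAA) were in none of these 4 promoters, against 7.79 and 13.6% of all promoters. These are matches of letters, and factor binding was not measured.

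Interferon-stimulated genes, as a group, had no call. Of 17 tested, 13 had lower and 4 higher values, where 69.4% of all genes tested had lower values. The median log2 fold change was -0.24, 0 had an adjusted p under 0.05 from limma and 2 an unadjusted p under 0.05, in opposite directions. For Isg15, a ubiquitin-like protein, the log2 fold change was -0.15 (adjusted p = 0.776 from limma) and for Bst2, tetherin, -0.24 (adjusted p = 0.473 from limma). Irf7, a transcription factor of the interferon response, had the largest log2 fold change of the list's genes without overlap, with 67.7, 142, 94 and 92.7 RPKM in PBS replicates 5 to 8 and 348, 236 and 184 RPKM in MC-21 replicates 2 to 4 (log2 fold change 1.36, adjusted p = 0.0697 from limma). Mx2, an antiviral GTPase, was below 1 RPKM in all MC-21 libraries and between 0.776 and 3.13 RPKM in PBS libraries (log2 fold change -0.69, adjusted p = 0.348 from limma). Lgals9 and Lgals3bp, both known to respond to interferon, had log2 fold changes of 0.05 and -0.34 beside the -0.24 of this list.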

How the data were processed

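RNA-seq of sorted liver neutrophils from 4 PBS-treated and 3 MC-21-treated mice was analysed, with columns assigned through the sample titles. The authors sequenced 3' libraries, mapped reads to mm9 with HISAT 0.1.5, converted files with SAMtools and deposited RPKM values per gene from Partek 6.6, after the submitters' processing notes and the paper's methods. The annotation, the treatment of reads with several matches and molecular barcodes are not given in the sources used here. Values of 3' libraries divided by length understate long transcripts. No test made for counts was run. Depth was read from genes with 1 annotated transcript and under 1 RPKM, where the most frequent product of value and length was taken as 1 read. The counting errors given with the reads cover counting only, while the 95% intervals come from the spread between libraries in limma.

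Differences (MC-21 minus PBS) on log2(RPKM + 1), which understates low genes, were fitted with limma 3.58.1 (trend) in R 4.3.3 over 9594 genes whose mean reached 1 RPKM, with Benjamini-Hochberg adjustment over all of them. Genes past the thresholds of the study, 2-fold with p under 0.05 unadjusted, were counted too. Single values and within-library ratios had two-sided exact permutation tests over the 35 divisions into 4 and 3 libraries, on the absolute difference of means. Named genes were all members, list genes that were called, the 2 largest changes without overlap per list, and the 3 genes most like each member. Havcr2, Itgam, Itgb2, Mgat5, Sqstm1, Map1lc3b, Isg15, Bst2 and the marker genes were named for their known roles after their values were seen. The members and lists were chosen with earlier results of these data known. The fit was checked on simulated data, where 172 of 200 genes shifted by 2 on the log2 scale were recovered. That shift was larger than the change of any member, so the check does not cover changes of their size. The sample titles give livers of a group with a number, without saying more, and the paper describes sorting per liver. The p-values measure the spread between these samples. Grifin, Calcoco2, Elane, Epx, Prg2 and Il5ra were not in the table. Alternatives were a pseudocount of 0.1, no filter, a mean of at least 5 RPKM, quantile or median scaling, no trend, unmoderated tests and leaving out each library. Python 3.11.15, numpy 2.4.6, pandas 2.3.3, scipy 1.17.1 and matplotlib 3.10.9 were used.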

Additional observations from a re-analysis of the deposited data

Results flagged for a closer look

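In the 4 PBS libraries, 5 levels and 10 log2 ratios of the members were examined with Dixon's ratio. The MC-21 libraries were not examined in this way. The log2 ratio of Lgals3 to Lgals9 in PBS replicate 7 was 2.34 and stood apart from the other 3 libraries with a gap of 0.872 of the whole range, above Dixon's 95% critical value for 4 libraries. Lgals3 itself was highest in this library, at 624 RPKM. Chance marks about 1 in 20 such groups, and 15 were examined.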

How the results depend on the processing

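No paired analysis was possible because the groups share no replicate numbers. Lgals1 stayed lower under all 15 alternatives, by -1.26 to -0.96 on the log2 scale with adjusted p of 0.0106 to 0.168, and had an adjusted p under 0.05 in 8 of them. It lost the call without a filter on low values (log2 fold change -1.12, adjusted p = 0.078) and in unmoderated tests on log2 values (-1.12, 0.157) and RPKM values (-1.12, 0.168). The members called then numbered 0, and the genes called 6, 4 and 5 in place of 60. With a library left out the members called were 0 or 1, the genes called 9 (without PBS replicate 8) to 102 (without PBS replicate 6), and Lgals1 stayed between -1.26 and -0.98. Genes with an unadjusted p under 0.05 and at least 2-fold numbered 259, and 433 with a pseudocount of 0.1 and 153 with a mean of at least 5 RPKM. Lgals3 was lower under all 15 alternatives with adjusted p between 0.0656 and 0.372. Lgals3bp was lower in all 15 (-0.49 to -0.18). Lgals8 ranged from -0.31 to 0.02 and Lgals9 from -0.07 to 0.11 with a library left out, Lgals8 turning without MC-21 replicate 2 and Lgals9 without MC-21 replicate 3 and, at 0.00, without PBS replicate 5. The split of lower and higher genes called was 41 and 19, but 30 and 44 with median centring and 29 and 26 with quantile normalization. The causes of these changes were not tested. The 10 ratios between members kept their direction in every alternative run, a pseudocount of 0.1 and each library left out, and with 3 libraries against 3 or 4 against 2 an exact p cannot reach 0.05 even before adjustment. Lgals8, with 54 to 137 reads, is the member most limited by depth.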
